A study of Mus musculus with 6 samples.

Results

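The microRNA (miRNA) miR-155 was followed here as 1 of the 611 mouse miRNAs with an entry on an Agilent miRNA array, in macrophages with and without a deletion of RBP-J. It was found on the array by its name, mmu-miR-155, with no measured value in the rule, and was taken up with earlier results of these data known. RBP-J binds DNA and carries the signal of active Notch receptors to the genes they control, and the study asked which miRNAs lie downstream of Notch in macrophage polarization. The 3 knockout (KO) samples were bone-marrow-derived macrophages of MxCre-RBP-Jf/f mice, in which both Rbpj alleles are floxed. The 3 control samples came from MxCre-RBP-Jf/+ mice, which carry 1 floxed allele and the same Cre; the sample titles call them WT. All mice were female C57BL/6, all had been given poly(I)-poly(C) to switch on Cre, and all cultures were exposed for 24 h to lipopolysaccharide (LPS) from the outer membrane of bacteria. The Mx promoter responds to interferon and is active in many cell types, so this Cre does not by itself restrict the deletion to macrophages. The array does not measure Rbpj mRNA, and no unstimulated sample was analysed here, so neither the deletion nor the induction of miR-155 by LPS could be checked. The labels do not say whether numbered replicates came from separate mice or cultures, so p-values measure only the spread between these samples.

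miR-155 is cut from the transcript of its host gene Mir155hg (formerly Bic), which Toll-like receptor signalling switches on through NF-κB and AP-1. In macrophages it is known to repress SHIP1 and SOCS1, which restrain inflammatory signalling, and so to sustain the classical, LPS-driven state. miR-146a, induced by the same receptors, acts the other way by lowering the adaptors TRAF6 and IRAK1.

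The RefSeq sequences below show the strands of the hairpin and whether other miRNAs share the seed of miR-155-5p, the bases 2 to 8 that select targets. Probe sequences were not available, so the array entry was matched to a strand by its name only. The array names miR-155 without an arm, the older name of the strand now called miR-155-5p. Mir155 lies on chromosome 16 of GRCm38.p6 at chr16:84714140-84714204, plus strand, inside the annotated span of the long non-coding RNA gene Mir155hg (chr16:84713023-84715245). The mature strand is at chr16:84714143-84714165. Capitals mark the seed in mature strands, and the whole 5p strand in the hairpin.
mmu-miR-155-5p: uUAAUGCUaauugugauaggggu
mmu-miR-155-3p: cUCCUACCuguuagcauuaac
Mir155 hairpin: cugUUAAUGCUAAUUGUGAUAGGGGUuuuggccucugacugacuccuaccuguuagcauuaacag
mmu-miR-146a-5p: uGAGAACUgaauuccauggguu
mmu-miR-146b-5p: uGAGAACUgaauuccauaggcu
mmu-miR-21a-5p: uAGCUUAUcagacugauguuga
In the RefSeq table, 1 mature mouse sequence carries the seed of miR-155-5p, namely miR-155-5p itself, whereas miR-146a and miR-146b share theirs. The closest of 1672 other mature mouse sequences, miR-26b-5p, differs from the 23 bases of miR-155-5p by 8 edits (substitutions, insertions or deletions). The passenger strand miR-155-3p has no entry among those analysed here.

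The listed markers of myeloid cells were detected, and the listed markers of other cell types were not. Detection of a probe required the software's well-above-background flag on 50% or more of its spots, and detection of a miRNA required 1 such probe. All 5 miRNAs listed as macrophage or myeloid markers (miR-223, miR-142-3p, miR-142-5p, miR-21 and miR-342-3p) were detected on all 6 arrays. Whether they are specific to these cells was not tested. The 22 markers of muscle, epithelial, stromal, endothelial, lymphoid and erythroid or platelet cells were detected on no array. The lymphoid list held only 2 of them, miR-138 and miR-150, the latter a marker of mature lymphocytes, which can make miR-155 when activated. The summed signal of any of these 6 lists lay between -9.60 and 6.62 intensity units on KO arrays and between -4.95 and 11.04 on control arrays. As RNA of whole cultures was measured, fewer cells with miR-155 and less miR-155 per cell cannot be told apart.

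Both probes for miR-155 gave a clear signal on every array and moved together. Probe A_54_P2337 was the brighter, with medians of 1348, 812.5 and 952.4 intensity units in KO replicates 1, 2 and 3, against 1627, 1200 and 1490 in control replicates 1, 2 and 3. Probe A_54_P2336 stood at 292.9, 166.3 and 187.8 units in KO, against 352.9, 244.2 and 297.5 in control. On both probes KO replicates 2 and 3 were the dimmest arrays, while KO replicate 1 lay above control replicate 2 on both.

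Each probe was printed as 10 spots per array, and all 120 miR-155 spots were well above background and unsaturated. The scanner flagged 3 of them as outliers, which were left out. The coefficient of variation over the spots of 1 array was 1.87% to 6.15% for A_54_P2337 and 2.92% to 4.83% for A_54_P2336. The local background beside these spots was 18.5 to 21.5 units. Spots of 1 probe on 1 array thus agreed to within an SD of 0.03 to 0.09 on the log2 scale, below the within-group SD between arrays of 0.24 after scaling.

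**Figure D1:**
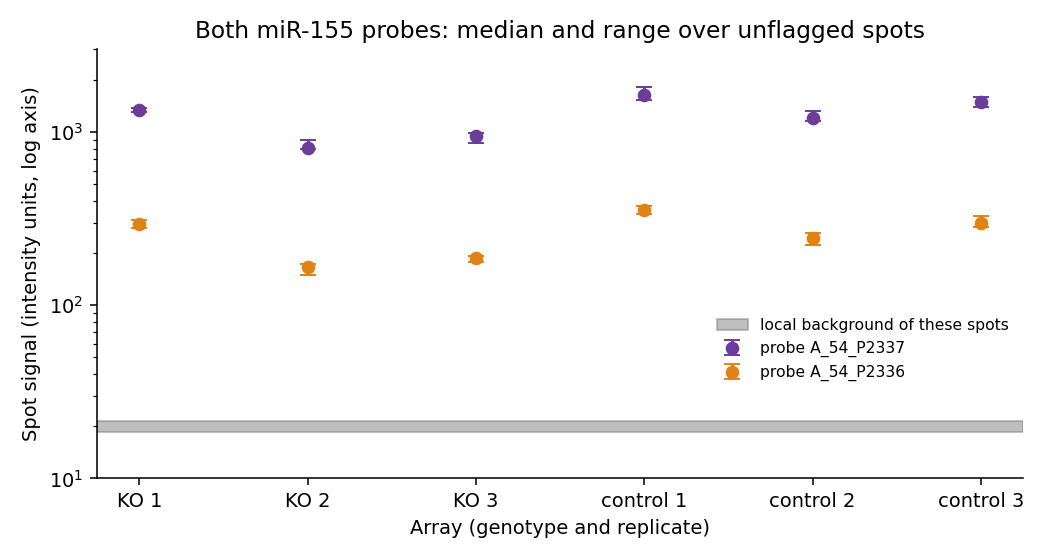
Signal of the miR-155 probes A_54_P2337 (purple) and A_54_P2336 (orange) on each array, in intensity units on a log axis; points are medians and whiskers the range over unflagged spots, and the grey band is the local background of 18.5 to 21.5 units. The probes kept a near-constant distance on all 6 arrays, far above background.

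A_54_P2337 was 4.60, 4.89 and 5.07 times as bright as A_54_P2336 on the KO arrays, and 4.61, 4.91 and 5.01 times on the control arrays. The ratio averaged 4.85 ± 0.24 in KO and 4.84 ± 0.21 in control (SD, n = 3 each; two-sided exact permutation p = 1). With the scaling described below, the KO minus control difference was -0.04 on either probe (exact permutation p = 0.9 for each). Among 79 miRNAs with at least a pair of probes detected on all arrays, the gap of 0.0027 between these log2 differences was the second smallest. The median gap was 0.04. The probe-to-probe log2 ratio varied across arrays with an SD of 0.06 for miR-155, near the median of 0.06 over those miRNAs. The probes share the target, so they are not independent measurements.

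miR-155 was among the brightest miRNAs of these macrophages. The gene-level total that the scanner software gives, the sum over both probes, was 1085, 662.3 and 760.6 units in KO replicates 1, 2 and 3, against 1327, 976.2 and 1158 in control replicates 1, 2 and 3. A_54_P2337 supplied 82.0% to 83.5% of it, and the software's own error was 8.40% to 8.53% of the total. KO replicate 1 exceeded control replicate 2, so the genotypes overlapped.

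Ranked by this total among the 153 to 162 mouse entries that the software called detected on each KO array, miR-155 came 9th, 13th and 14th. Among the 159 to 168 detected entries of each control array it came 11th, 13th and 11th. The mean rank was 12 ± 2.65 in KO and 11.7 ± 1.15 in control (SD, n = 3 each; two-sided exact permutation p = 1). Thus miR-155 lay within the brightest 5.88% to 9.03% of detected entries on every array. Probes differ in affinity, so such ranks order brightness and not the number of molecules.

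Of 138 entries detected on all arrays, 8 were brighter than miR-155 on every array, 122 were dimmer on every array and 7 changed sides. The 8 were miR-21, miR-24, miR-1224, miR-22, miR-23a, miR-223, let-7f and let-7i. By mean rank, let-7i, miR-23b and let-7a stood just above miR-155. let-7i was the brighter on all 6 arrays, and miR-23b and let-7a on 5 of 6. Just below it stood miR-29a, miR-142-3p and let-7d. miR-29a exceeded miR-155 on 3 of the 6 arrays and miR-142-3p on 1, whereas let-7d did so on 0. The positions of miR-23b, let-7a, miR-29a and miR-142-3p relative to miR-155 were therefore not settled across arrays. Among the entries that changed sides was miR-146a, which was brighter than miR-155 in KO replicate 3 and dimmer on the other arrays.

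**Figure D2:**
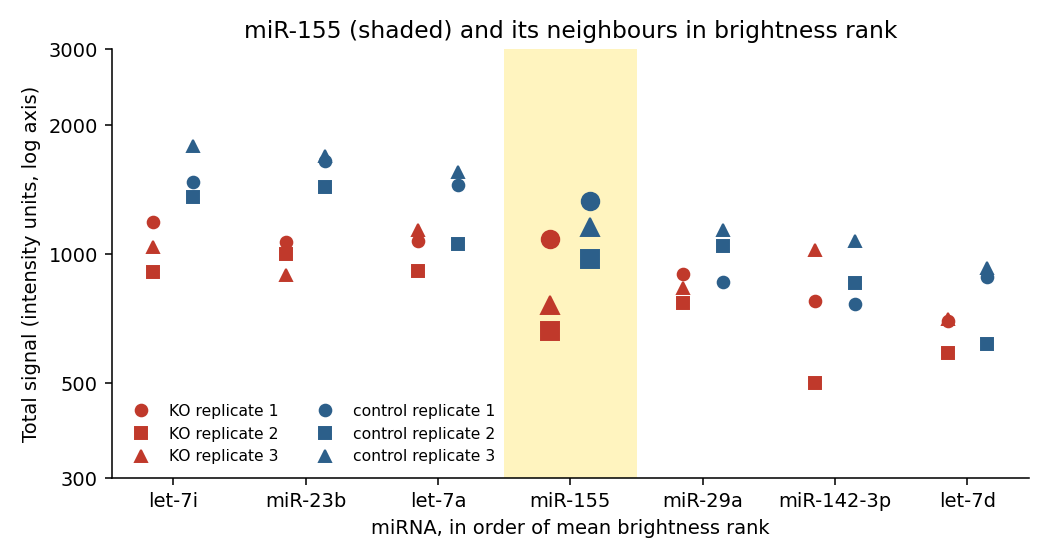
Gene-level total signal (intensity units, log axis) of miR-155, shaded, and of the 3 miRNAs above and below it in mean rank; each point is 1 array, KO in red left of control in blue, with a symbol per replicate. The points of miR-155 overlap those of miR-29a, while let-7i lay above miR-155 on all 6 arrays when arrays are compared one by one.

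As a share of the summed signal of all detected mouse entries, miR-155 made up 1.87%, 1.46% and 1.38% in KO replicates 1, 2 and 3, against 2.01%, 1.55% and 1.50% in control replicates 1, 2 and 3. The mean was 1.57% ± 0.26 in KO and 1.68% ± 0.28 in control (SD, n = 3 each; two-sided exact permutation p = 0.5). Replicate 1 had the highest share in either genotype, and the ranges overlapped. Without control replicate 1 the KO minus control difference in share was 0.045 percentage points, against -0.12 over all arrays. This measure needs no scaling between arrays, but 42.5% to 47.8% of the sum was miR-21. With miR-21 left out of the sum, a choice made after the values were seen, the share was 2.89% ± 0.60 in KO and 3.06% ± 0.39 in control (SD, n = 3 each; exact permutation p = 0.6).

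miR-155 did not separate the genotypes. Deposited totals averaged 836.1 ± 221.4 units in KO and 1154 ± 175.3 in control (SD, n = 3 each; two-sided exact permutation p = 0.2). With 3 against 3 arrays the smallest p this test can give is 0.1. The KO arrays were dimmer as a whole. The 75th percentile of the 200 probes detected on all arrays was 227.1, 186.3 and 225.7 units in KO, against 287.8, 242.6 and 352.3 in control, and each KO array was dimmer than each control array (exact permutation p = 0.1). The part of this array brightness in the unscaled miR-155 values was not tested.

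Relative to that percentile, the log2 signal of miR-155 (its brighter probe) was 2.57, 2.12 and 2.08 in KO replicates 1, 2 and 3, against 2.50, 2.31 and 2.08 in control replicates 1, 2 and 3. The groups overlapped throughout, with KO replicate 1 the highest array and KO replicate 3 the lowest. The mean was 2.26 ± 0.27 in KO and 2.29 ± 0.21 in control (SD, n = 3 each). The KO minus control difference was -0.04 (SE 0.20; limma adjusted p = 0.960 over 135 tested miRNAs), a KO signal 0.974-fold that of control. The 95% interval ran from -0.49 to 0.42, or 0.712-fold to 1.33-fold. Within this scaling a 2-fold change in either direction lay outside the interval, while changes inside it could not be told from none.

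**Figure D3:**
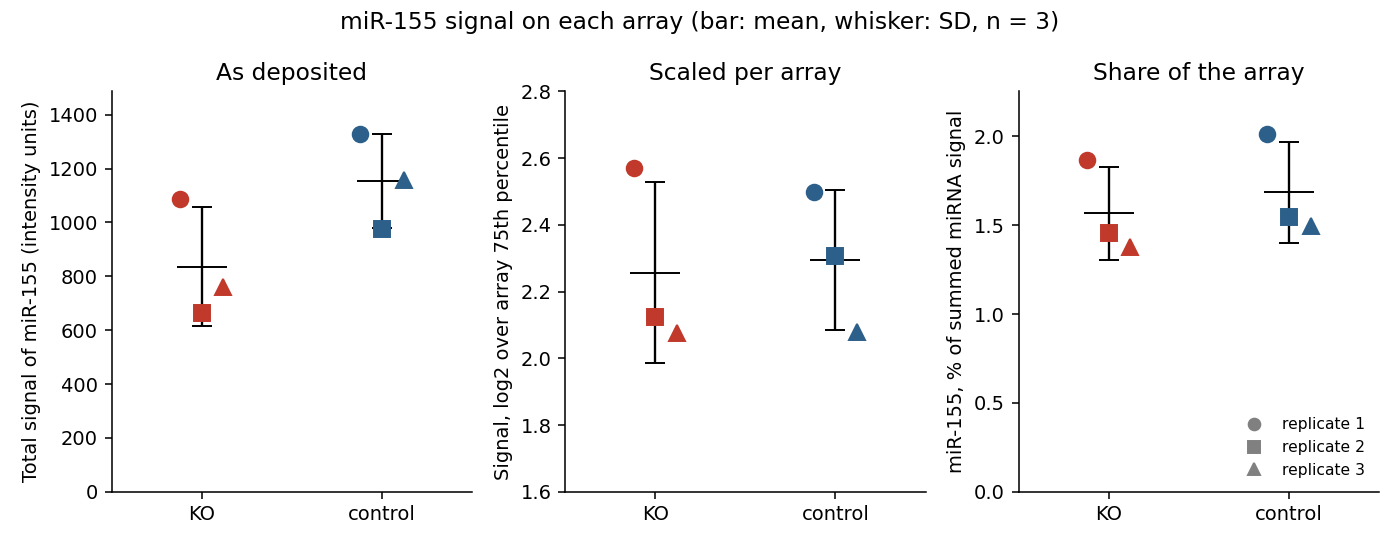
miR-155 on the 3 KO (red) and 3 control (blue) arrays as deposited total (intensity units), as log2 signal over the array's 75th percentile, and as percent of the summed signal of detected mouse miRNAs; symbols mark replicates, and bars and whiskers the mean and SD. KO totals of 662.3 to 1085 units overlap control totals of 976.2 to 1327, and the scaled means of 2.26 in KO and 2.29 in control nearly coincide.

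Among all 135 tested miRNAs, those detected on at least 3 arrays, limma called 0 higher (0%) and 0 lower (0%) in KO after Benjamini-Hochberg adjustment at 0.05. At an unadjusted p under 0.05 there were 6 (4.44%), 5 of them higher in KO (3.7%) and 1 lower (0.741%). This split depended on the scaling: 1 was higher and 12 were lower when arrays were scaled to the median of detected probes, 1 and 8 with quantile scaling, and 0 and 26 with no scaling. KO and control arrays did not overlap for 14 miRNAs (10.4%), and miR-155 was not one of them. Its difference was the 18th smallest of the 135 in size and its p the 18th largest. The within-group SD of miR-155, 0.24, was close to the median of 0.23 over the tested miRNAs.

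Over all tested miRNAs the median difference was 0.11, and relative to it miR-155 was at -0.15. The sign of the main value turned without control replicate 1 (0.04), without KO replicate 2 (0.0055) and without KO replicate 3 (0.066). Relative to the mean of the 5 miRNAs listed as macrophage or myeloid markers on the same array, the difference was -0.18 (exact permutation p = 0.5). This setting was added after the data were seen. With no scaling between arrays it was -0.49 (SE 0.23; limma adjusted p = 0.261), where the median of all tested miRNAs was -0.31. All 6 arrays shared 1 slide and 1 scan. Replicates 1 and 2 lay in slide column 1, where the difference was -0.06 over 4 arrays. Replicate 3 lay in column 2, where it was -0.0027 between 1 KO and 1 control array. With the column as a block it was -0.04 (SE 0.18; limma adjusted p = 0.951). Each KO array lay in the slide row after a control array, and no row held both genotypes; with a linear trend over the rows the value was 0.0079 (SE 0.23; limma adjusted p = 0.983).

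**Figure D4:**
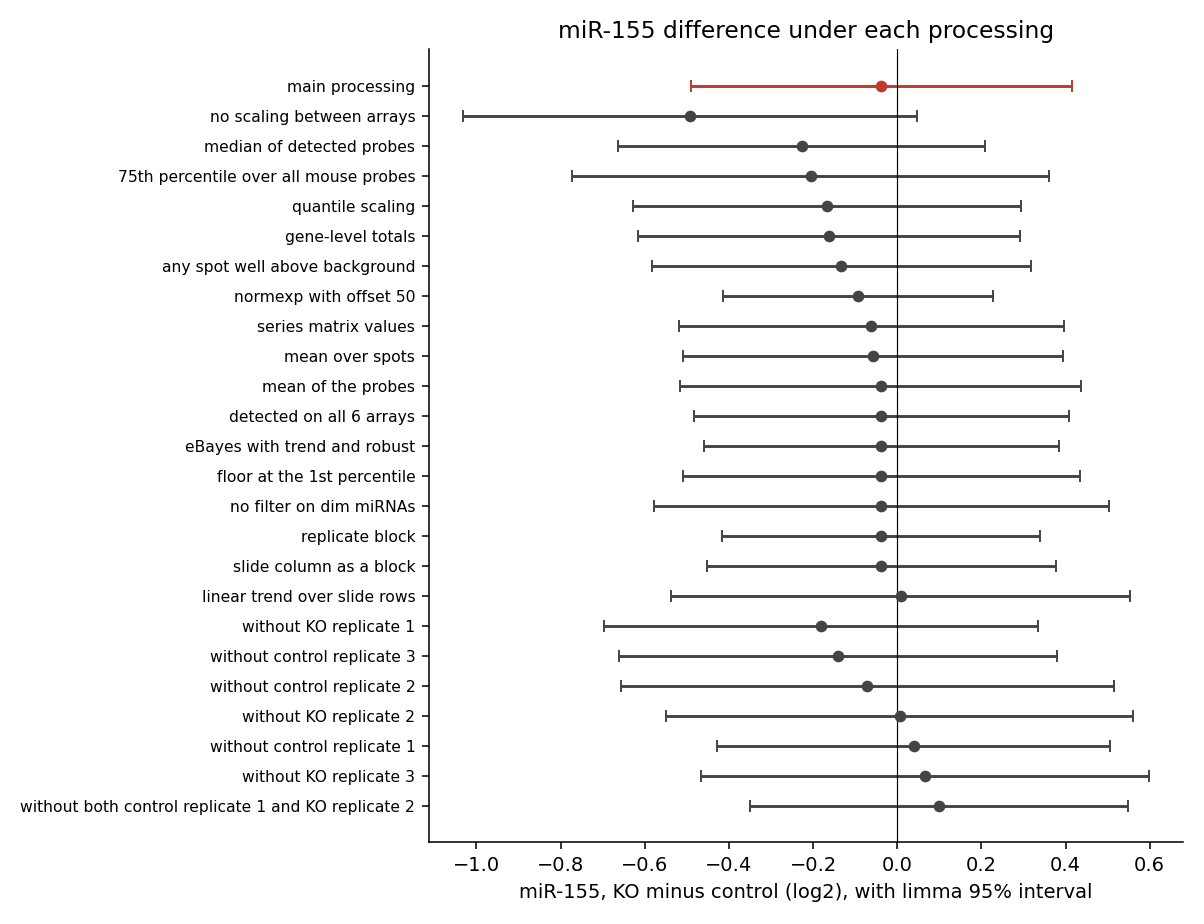
KO minus control difference of miR-155 on the log2 scale with limma's 95% interval under the main processing (red) and under each alternative fitted (grey), with fits that leave out arrays at the bottom. Every interval includes 0, from -0.49 with no scaling between arrays to 0.10 without both control replicate 1 and KO replicate 2.

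The other miRNAs that LPS or NF-κB is known to induce, or that accompany macrophage activation, also passed no threshold. The 16 such miRNAs on the array, miR-155 included, are called the LPS-induced list below. Of these, 12 were tested, and 0 passed in either direction against a background of 0% of all tested miRNAs. Their median difference was -0.0039, beside 0.11 over all 135. In the fit 6 of the 12 were higher and 6 lower in KO, beside 97 higher and 38 lower among all 135. The groups did not overlap for 1 of the 12, let-7e, beside 10.4% of all tested miRNAs. miR-147, miR-9, miR-187 and miR-511 were detected on no array and were not tested.

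Other miRNAs of the Toll-like receptor response gave no call either. miR-146a, which restrains the pathway, averaged 1.85 ± 0.42 in KO and 1.66 ± 0.45 in control on the scaled log2 scale (SD, n = 3 each), a difference of 0.19 (SE 0.28; limma adjusted p = 0.776). Its relative miR-146b averaged 0.61 ± 0.09 in KO and 0.73 ± 0.13 in control, a difference of -0.12 (SE 0.16; limma adjusted p = 0.748). miR-21, which dampens inflammatory signalling by lowering PDCD4, averaged 6.93 ± 0.13 in KO and 6.85 ± 0.17 in control, a difference of 0.08 (SE 0.17; limma adjusted p = 0.868). These are differences within each miRNA, and the scaled levels of different miRNAs are not comparable as amounts. The within-group SD was 0.43 for miR-146a and 0.24 for miR-155, so the interval for miR-146a was the wider, from -0.46 to 0.83. The sign for miR-146a turned without KO replicate 3 (-0.02) and without control replicate 2 (-0.10), and that for miR-21 without control replicate 1 (-0.0038). The difference for miR-146b was -0.05 without KO replicate 3 and -0.21 without control replicate 1.

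The 4 listed miRNAs with the smallest unadjusted p were all lower in the fit without passing. miR-125a-5p was at -0.53, let-7e at -0.47 and miR-99b at -0.46, and their genes are neighbours. Without control replicate 1, the array where all 3 were highest, these differences were -0.19, -0.23 and -0.20 in the same order. miR-221, which with miR-222 lowers the cell cycle inhibitor p27, was at -0.40, and at -0.24 without KO replicate 3 (limma adjusted p over all arrays = 0.637 for each of the 4). miR-222 itself stood at 0.03 (SE 0.16; limma adjusted p = 0.960). Whether these differences differ from that of miR-155 was not tested.

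**Figure D5:**
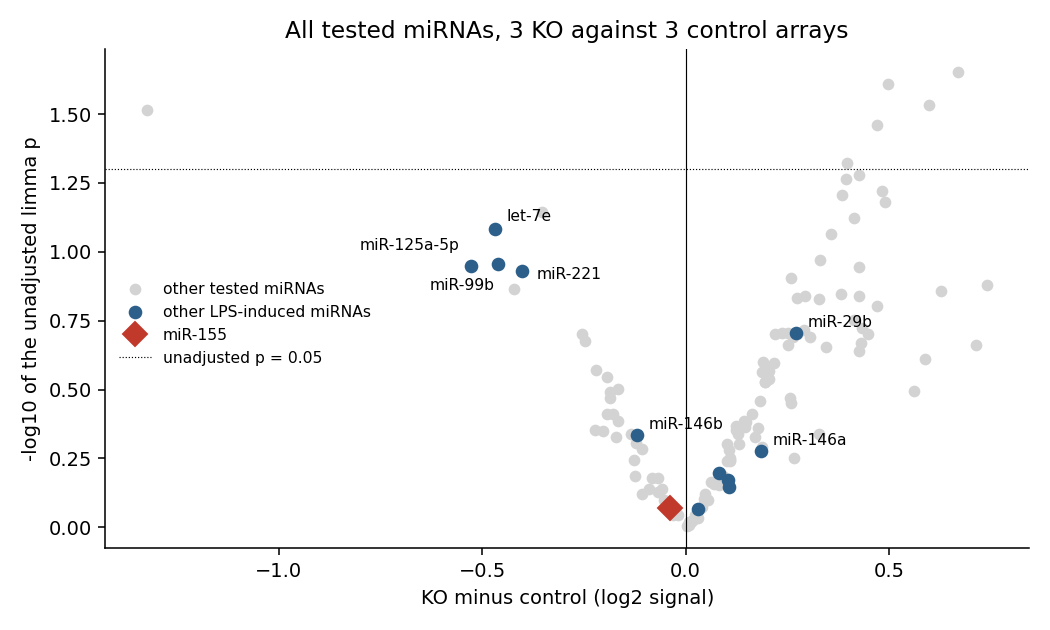
KO minus control difference (log2 signal) against -log10 of the unadjusted limma p for all 135 tested miRNAs, with miR-155 as a red diamond and the other 11 tested miRNAs of the LPS-induced list in blue. This list also holds miRNAs that accompany macrophage activation. miR-155 lies near the origin at -0.04, and no blue point crosses the dotted line at an unadjusted p of 0.05.

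The miRNAs whose scaled signal followed miR-155 most closely over the 6 arrays, out of 109 others detected on all of them, were miR-652, miR-484, miR-222, miR-30b and miR-140*. Their Pearson r to miR-155 was 0.80 for miR-652, 0.74 for miR-484, 0.74 for miR-222, 0.73 for miR-30b and 0.69 for miR-140*. On control replicate 3 miR-484 stood at the floor of -4.32 set for dim signals. Spearman's rho was 0.83, 0.83, 0.83, 0.66 and 0.77 in the same order. These values describe 6 arrays that share a slide and a scaling, and the 5 were picked as the highest of 109. Over all 109 the median r was 0.03 and the range -0.84 to 0.80. miR-652 stood at 0.38, 0.27 and 0.08 in KO replicates 1, 2 and 3, against 0.60, 0.21 and -0.14 in control replicates 1, 2 and 3, so that, as for miR-155, replicate 1 was the highest array and replicate 3 the lowest in either genotype. The 5 miRNAs had KO minus control differences of -0.09 to 0.03.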

How the data were processed

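Cy3-labelled total RNA of 6 samples was hybridised to Agilent design 021828 and scanned in 1 colour, per the labels and file headers. The deposited intensity values are spot signals, background-subtracted and detrended by the scanner software and not normalized between arrays. Per the file headers its version was Feature Extraction 10.5.1.1, and the submitters' processing notes name 9.1. The gene-level tables hold totals per miRNA. The series matrix as deposited holds log2 values, with column medians of 0.029, 0.024 and 0.015 in KO replicates 1, 2 and 3 and 0.0010, 0.026 and 0 in control, and the same maximum of 14.7 in each. Over 154 entries each column correlated best with log2 of its own array's gene-level totals, at 0.999 on all 6 arrays. A 1-colour value has no ratio direction. Neither the between-array scaling nor the method behind it is given in the sources used here. Its miR-155 value is the same, 9.72, in KO replicates 2 and 3.

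For each of 1759 mouse probes the median over unflagged spots was divided by the array's 75th percentile over the 200 probes detected on all arrays, raised to a floor of -4.32 (log2) and log2 transformed. A miRNA took its brightest probe. The 135 miRNAs detected on at least 3 arrays were fitted with limma 3.58.1 (R 4.3.3) without covariates, with Benjamini-Hochberg adjustment. Per-array measures used two-sided exact permutation tests. The number of arrays limits the precision. miR-155, the lists and the naming rule (miR-155, 7 listed miRNAs, 3 rank neighbours on each side, the 5 highest r) were chosen with earlier results of these data known. RefSeq tables of GRCm38.p6 gave sequences and positions. Alternatives covered background correction, scaling, floor, filter, probe and spot summaries, gene-level totals, the series matrix, blocks, slide rows, the variance model and leaving out arrays.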

Additional observations from a re-analysis of the deposited data

How the results depend on the processing

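The miR-155 difference passed the threshold under none of the 24 alternative fits (limma adjusted p from 0.261 to 0.996), and its sign was not settled. It was 0.0079 with a linear trend over slide rows, 0.10 without both control replicate 1 and KO replicate 2 (chosen after seeing the data), and ran from -0.18 (without KO replicate 1) to 0.066 (without KO replicate 3) when single arrays were left out; without KO replicate 2 it was 0.0055 and without control replicate 1 0.04. Relative to the median miRNA it ranged from -0.33 to 0.02. With no scaling between arrays the probes stood at -0.49 (A_54_P2337) and -0.50 (A_54_P2336). With the scaling of the main processing, leaving out single arrays gave -0.18 to 0.07 and -0.22 to 0.10 in the same order. The rank difference ran from -0.67 (without KO replicate 3) to 1.83 (without KO replicate 1), and was -0.17 without KO replicate 2. The share difference ran from -0.27 (without KO replicate 1) to 0.045 (without control replicate 1) percentage points. The median of the LPS-induced list was -0.17 with all probes as reference, -0.12 with gene-level totals, -0.19 with the median of detected probes and -0.46 with no scaling, and -0.14 (without KO replicate 1) to 0.012 when single arrays were left out. The cause of these shifts was not tested.

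No alternative fit called any miRNA after adjustment, while unadjusted counts of higher and lower miRNAs, 5 and 1 in the main processing, were 22 and 3 with normexp. Lower outnumbered higher with no scaling (0 and 26), the median of detected probes (1 and 12), gene-level totals (4 and 11), series matrix values (0 and 9), quantile scaling (1 and 8), any spot above background (1 and 6) and the percentile over all probes (0 and 5). The labels number the replicates alike in both genotypes but do not state that they are pairs, so the numbers were not taken as pairs. Deviations of same-numbered samples correlated at 0.17, -0.07 and 0.37 over the tested miRNAs for numbers 1, 2 and 3. The highest correlation of each KO sample with a control sample of another number was 0.03, 0.16 and 0.06. Same-numbered samples were thus the more alike for numbers 1 and 3 but not for 2. With the replicate block the miR-155 difference was -0.04 (SE 0.16; limma adjusted p = 0.947), the LPS-induced list's median -0.0039, and the unadjusted counts 11 and 2 with 0 called. For probe ratio, rank, share and totals no paired test was run, and their differences by number stand under the other observations. All miR-155 spots were well above background and unsaturated.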

Other observations

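Samples that share a replicate number were alike in some miR-155 measures. Same-numbered KO and control arrays also shared a slide column and lay in adjacent rows, so number and slide position cannot be told apart. The ratio of probe A_54_P2337 to A_54_P2336 differed by -0.0067 between the KO and control arrays numbered 1, by -0.03 between those numbered 2 and by 0.06 between those numbered 3, while it spanned 4.60 to 5.07 over all arrays. The share of summed signal was lower on the KO array by 0.14, 0.09 and 0.12 percentage points in the same order, in 3 of 3 numbers. The unscaled gene-level total was also lower in 3 of 3, at -0.29, -0.56 and -0.61 on the log2 scale, and the rank differed by -2, 0 and 3 places. With miR-21 left out of the sum it was lower in 2 of 3, and the scaled log2 signal was likewise lower in 2 of 3, at 0.07, -0.18 and -0.0027. These values were noticed after the data were seen and no test was run on them.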
